A study of Mus musculus with 18 samples.

Results

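The genes described here are 10 genes of the elastic fibre and of its cross-linking: the lysyl oxidases Lox, Loxl1, Loxl2 and Loxl3, elastin (Eln), fibrillin-1 (Fbn1), the fibulins Fbln5 and Fbln1, Emilin1 and Mfap5. They were chosen by name, and their values were taken from every probe set annotated to 1 of these symbols alone. That gave 14 probe sets for 8 of the 10 genes. Of these, 13 passed the filter on low values, a log2 value above 4 in at least 3 of 18 samples, so all 8 genes were among the 7092 genes tested. Fbn1 is not listed in the probe annotation used here, and Loxl2 is listed only on a probe set shared with Gm21451, so neither gene has a value of its own.

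The study measured RNA of aortas from wild type C57Bl/6 male mice. All mice, those behind the vehicle pools included, had carried a pellet of spironolactone, a blocker of the mineralocorticoid receptor, at 20 mg/kg/day for 5 days. The aortas were then kept in organ culture in DMEM with aldosterone at 100 nM for 2, 4 or 8 h, or with vehicle for 2, 4 or 8 h, and each of these 6 groups holds 3 biological replicates, each a pool of 3 aortas. The labels used here state no age for the animals, and an aorta in a dish has neither blood flow nor the pressure it carries in the animal.

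Elastic fibres give the aortic wall its recoil. Smooth muscle cells and fibroblasts secrete tropoelastin, the product of Eln, which gathers on a scaffold of fibrillin microfibrils with the help of fibulins, and lysyl oxidases then oxidise lysine residues so that the monomers become cross-linked. Lox also cross-links fibrillar collagens, which links the same enzyme to the stiffness of the wall. Aldosterone is the main mineralocorticoid hormone, and its receptor is expressed in vascular smooth muscle and endothelium.

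Levels are given as log2 values of the deposited table, and differences as log2 differences ± SE from a linear model (limma) of all 18 samples, with p-values adjusted by the Benjamini-Hochberg method over the 7092 genes and a threshold of 0.05. Where a gene had several probe sets past the filter, the brightest stood for it. Levels of different genes are not compared, because probe sets differ in their response.

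The arrays correlated with each other at r = 0.838 to 0.994. The first vehicle pool at 2 h stood apart: its median log2 value was 4.42, against 4.01 to 4.09 in the other arrays, and 908 of its genes lay more than 1 from the mean of the other pools of its group. It was the highest of the 3 vehicle pools at 2 h for each of the 8 genes, so several results that use the 2 h samples are also given without it. The smooth muscle markers Acta2, at 13.80 to 14.94, and Myh11, at 12.43 to 14.02, were present in every pool, and all 11 smooth muscle markers passed the filter. Transcripts of fibroblasts, endothelium, macrophages and adipocytes were also measured, so the pools hold RNA of several cell types. In such bulk samples, fewer cells of a type and less RNA per cell cannot be told apart.

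**Figure D1:**
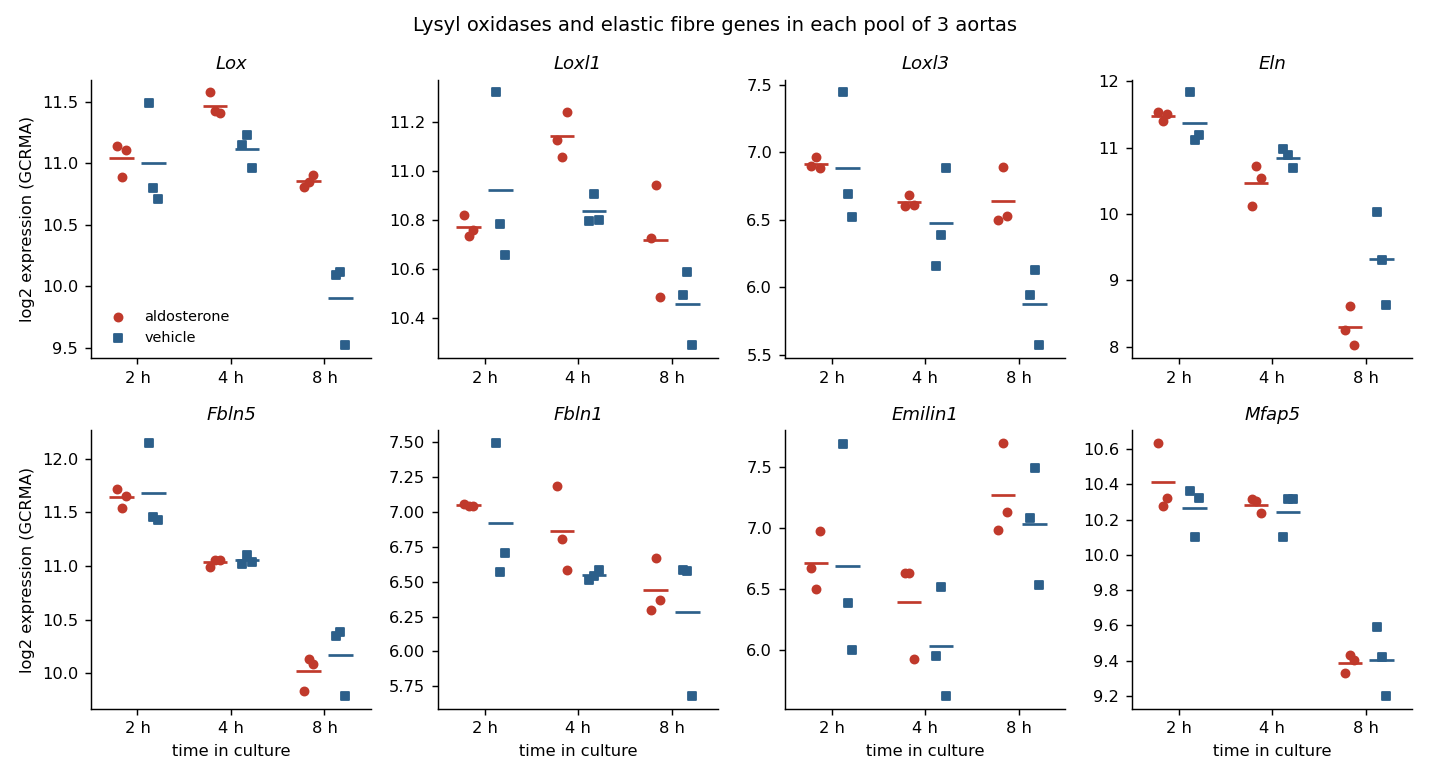
Log2 expression of the 8 measured genes against time in culture (h), 1 point per pool (aldosterone red circles, vehicle blue squares), with a bar at each mean of 3 pools. At 8 h the Lox points of aldosterone pools, 10.81 to 10.91, lie above those of vehicle pools, 9.52 to 10.11, and the Eln points lie below.

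After 8 h of aldosterone, Lox, the founding member of its enzyme family, was the 1 gene of the 8 that passed the test. It was 1.93-fold higher with aldosterone than with vehicle. Loxl3, a related oxidase, was 1.69-fold higher and Eln was at 0.492 of its vehicle level, and neither passed. The remaining genes, Loxl1, Fbln5, Fbln1, Emilin1 and Mfap5, differed by between -0.15 and 0.26. Among all genes 1.0% were called at 8 h, 0.860% higher and 0.141% lower, and 14.5% had groups that did not overlap, which was the case for Lox, Loxl3 and Eln of the 8.

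At 8 h Lox read 10.81, 10.85 and 10.91 in aldosterone pools, against 10.09, 10.11 and 9.52 in vehicle pools. Every aldosterone pool was above every vehicle pool, and the aldosterone pools lay closer together, with an SD of 0.051 against 0.338. The difference was 0.95 ± 0.18 (95% interval 0.570 to 1.326, limma adjusted p = 0.00928). A second Lox probe set read 10.15, 10.30 and 10.33 in aldosterone pools, against 9.29, 9.40 and 8.84 in vehicle pools. It gave the same order of the groups and a difference of 1.08 ± 0.18 (limma adjusted p = 0.00364 over 11236 probe sets). One more Lox probe set lay below the filter, at 2.38 to 2.93 in all pools. The Lox call at 8 h did not hold without the second aldosterone pool (0.95, limma adjusted p = 0.0536), without the third aldosterone pool (0.92, adjusted p = 0.0517) or without the third vehicle pool (0.75, adjusted p = 0.0631).

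The other lysyl oxidases lay higher on average with aldosterone at 8 h, but did not pass the test. Loxl3 read 6.49, 6.89 and 6.52 in aldosterone pools, against 5.94, 6.13 and 5.57 in vehicle pools. The groups did not overlap, and the difference was 0.76 ± 0.23 (95% interval 0.278 to 1.237, limma adjusted p = 0.224). Without the first vehicle pool at 2 h, which enters only the estimate of the spread here, the same difference passed (limma adjusted p = 0.0411). Loxl1, which is tied to elastin homeostasis in mice, read 10.73, 10.94 and 10.49 in aldosterone pools, against 10.49, 10.59 and 10.29 in vehicle pools. These groups overlapped, and the difference of 0.26 ± 0.15 had a 95% interval of -0.049 to 0.576.

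Elastin lay on the opposite side. Eln read 8.26, 8.62 and 8.02 in aldosterone pools at 8 h, against 10.03, 9.31 and 8.62 in vehicle pools. The 2 values of 8.62 differ in the third decimal, so the groups met without overlapping. The difference was -1.02 ± 0.27 (95% interval -1.593 to -0.456, limma adjusted p = 0.116). A second Eln probe set read 5.11, 5.41 and 4.84 in aldosterone pools, against 7.04, 6.28 and 5.52 in vehicle pools, and the groups again did not overlap (-1.16 ± 0.35, adjusted p = 0.21 over 11236 probe sets). The vehicle pools spread widely, with an SD of 0.705 against 0.303 in aldosterone pools. In the first and second vehicle pools at 8 h, 81 and 41 of all genes lay more than 1 from the mean of the other pools of the group, against 130 in the third. On the probe set standing for each gene, the third vehicle pool was the lowest of its group for all 8 genes. On the second probe sets of Mfap5 and Emilin1, the third vehicle pool was not the lowest. Without that pool the Eln difference was -1.37 (limma adjusted p = 0.0118), and without the first vehicle pool at 2 h it was -1.02 (adjusted p = 0.0465). Without the first vehicle pool at 8 h, the highest of its group, the Eln difference was -0.67 (adjusted p = 0.389), so both its size and its call depended on single pools.

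**Figure D2:**
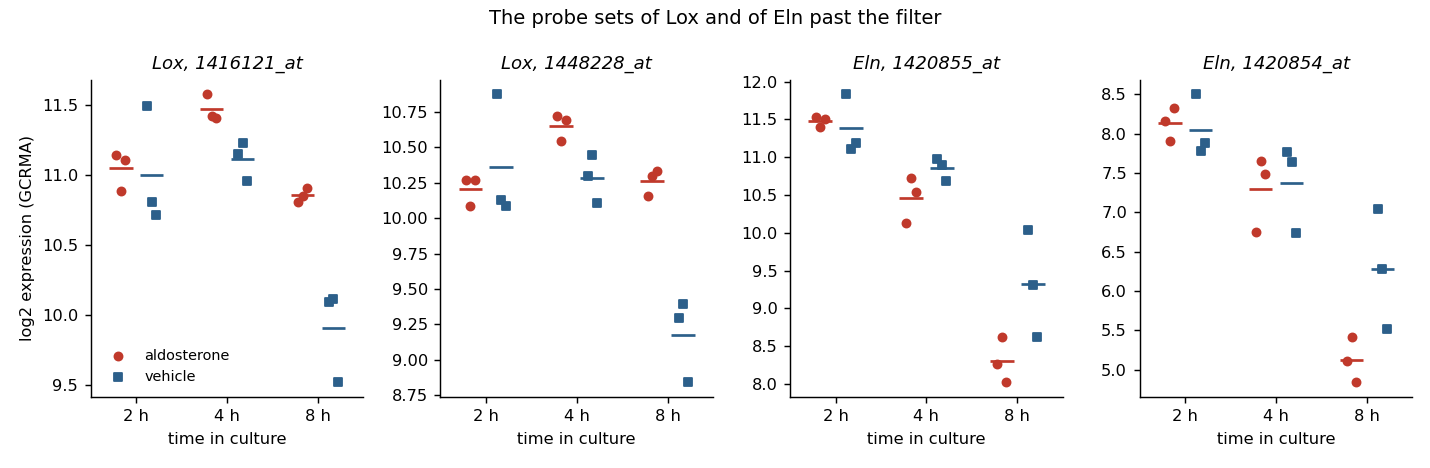
Log2 expression on both Lox probe sets and both Eln probe sets past the filter against time in culture (h), 1 point per pool, with bars at the means of 3 pools (aldosterone red circles, vehicle blue squares). At 8 h aldosterone pools lie above vehicle pools on both Lox probe sets (0.95 and 1.08) and below them on both Eln probe sets (-1.02 and -1.16).

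The genes that organise the fibre showed smaller differences at 8 h. Fbln5, a fibulin that binds tropoelastin and is needed for elastic fibres in mice, read 9.83, 10.14 and 10.09 in aldosterone pools, against 10.35, 10.38 and 9.79 in vehicle pools. Mfap5, a microfibril-associated glycoprotein, read 9.33, 9.43 and 9.41 in aldosterone pools, against 9.59, 9.42 and 9.20 in vehicle pools. Both pairs of groups overlapped. The difference was -0.15 (95% interval -0.517 to 0.210) for Fbln5 and -0.01 (95% interval -0.272 to 0.243) for Mfap5. The Mfap5 interval is the narrowest of the 8 at 8 h.

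Fbln1, a fibulin found in elastic fibres and basement membranes, read 6.29, 6.67 and 6.37 in aldosterone pools at 8 h, against 6.59, 6.57 and 5.68 in vehicle pools. Emilin1, an elastin interface protein of the vessel wall, read 6.99, 7.70 and 7.13 in aldosterone pools, against 7.08, 7.49 and 6.53 in vehicle pools. The groups overlapped for both genes. Their differences were 0.16 (95% interval -0.365 to 0.691) and 0.24 (95% interval -0.537 to 1.010). The Emilin1 interval holds a change as large as that of Lox, and the Fbln1 interval does not. The second probe sets gave -0.03 for Fbln1, 0.14 for Emilin1 and -0.03 for Mfap5, none of them called.

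**Figure D3:**
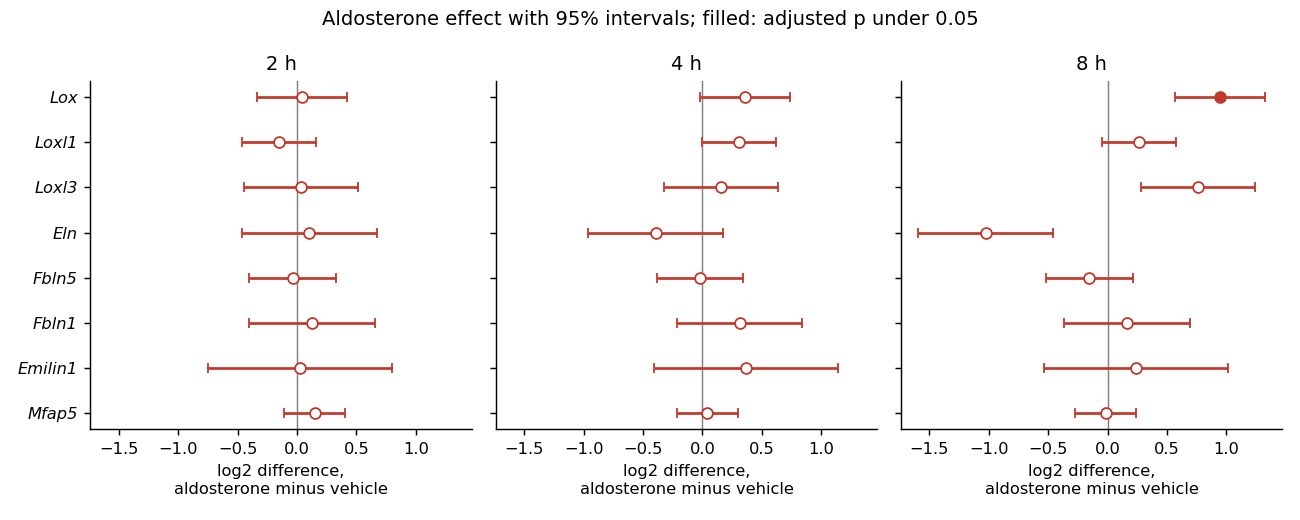
Log2 difference, aldosterone minus vehicle, of the 8 genes at 2, 4 and 8 h, with 95% intervals; filled points passed the test. Lox at 8 h (0.95) is the one filled point, and the intervals of Loxl3 and Eln at 8 h also lie off 0.

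At 2 h none of the 8 genes passed, among 0.0705% of all genes called. Their differences lay between -0.15 for Loxl1 and 0.15 for Mfap5, and limma gave an unadjusted p below 0.05 for 0 of the 8 and for 782 of all genes. Lox read 11.15, 10.89 and 11.11 in aldosterone pools at 2 h, against 11.50, 10.80 and 10.71 in vehicle pools, and Eln read 11.53, 11.40 and 11.51 in aldosterone pools, against 11.83, 11.11 and 11.19 in vehicle pools. For both genes the first vehicle pool lay above all aldosterone pools and the other vehicle pools lay below them all, so the groups overlapped. Without that vehicle pool the differences of the 8 genes at 2 h were all above 0, at 0.29 for Lox, 0.33 for Eln and 0.52 for Emilin1, and again none passed.

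At 4 h none of the 8 passed either, among 0.240% of all genes called, and 0 of the 8 had an unadjusted p below 0.05 in limma, against 267 of all genes. Lox read 11.58, 11.42 and 11.41 in aldosterone pools, against 11.15, 11.23 and 10.96 in vehicle pools (0.36 ± 0.18, limma adjusted p = 1). Loxl1 read 11.13, 11.06 and 11.24 in aldosterone pools, against 10.80, 10.91 and 10.80 in vehicle pools (0.31 ± 0.15, limma adjusted p = 1). For these 2 oxidases the groups did not overlap at 4 h, which was so for 10.6% of all genes. Eln read 10.12, 10.72 and 10.54 in aldosterone pools, against 10.98, 10.89 and 10.69 in vehicle pools, and 1 of the aldosterone pools reached into the vehicle range (-0.39 ± 0.27). The second Eln probe set gave -0.08 ± 0.35 at 4 h.

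Over the 3 times together, Lox averaged 0.45 ± 0.10 higher with aldosterone (limma adjusted p = 0.0413), the 1 call among the 8, against 1.10% of all genes called and 0.860% called higher. Its second probe set gave 0.43 ± 0.10 with an adjusted p of 0.0541. The call of the first probe set held without the first vehicle pool at 2 h, or without the first or the second vehicle pool at 8 h, and was lost without any other single pool, with Lox adjusted p between 0.0546 and 0.0975 in limma. Eln averaged -0.44 ± 0.16 and Loxl3 0.32 ± 0.13, and neither passed. Without the first vehicle pool at 2 h, Eln averaged -0.36 and Loxl3 0.41, and again neither passed. Whether the aldosterone effect changed with time was tested for each gene in 1 F test, which called 0 of the 8 genes and 0.155% of all genes. It takes the effects at 4 h and at 8 h, each against that at 2 h, together. Its p is thus not that of 8 h against 2 h alone. The unadjusted p was below 0.05 for 2 of the 8, Lox and Eln, and for 420 of all genes. For Lox the effect at 8 h exceeded that at 2 h by 0.90 ± 0.25 (unadjusted p = 0.00773 and adjusted p = 0.543 in limma's F test), and for Eln the same quantity was -1.13 ± 0.38 (unadjusted p = 0.0288, adjusted p = 0.771). Without the first vehicle pool at 2 h this quantity was 0.66 for Lox (F test, adjusted p = 0.296) and -1.35 for Eln (adjusted p = 0.329).

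The median difference of the 8 genes at 8 h was 0.20, against 0.01 over all genes. Marker levels at 8 h are given beside these differences. Of the 10 measured macrophage markers, of 11 listed, 1 was called higher with aldosterone, Mrc1 (1.27 ± 0.28, limma adjusted p = 0.0335), named after its value was seen. Over all genes 0.860% were called higher at 8 h. The mean log2 level of the 10 was 5.37 to 5.63 in aldosterone pools and 5.10 to 5.54 in vehicle pools. The mean log2 level of the 7 measured fibroblast markers, of 8 listed, was 7.76 to 7.94 in aldosterone pools at 8 h and 7.23 to 7.87 in vehicle pools, with none of the 7 called. The mean of the 11 smooth muscle markers was 9.50 to 9.80 in aldosterone pools and 9.57 to 9.93 in vehicle pools, also with none called. The mean of the 3 measured cardiac muscle markers, of 6 listed, was 6.95 in the third aldosterone pool, against 4.36 to 4.47 in the other aldosterone pools and 3.85 to 4.58 in vehicle pools at 8 h. Their part in the differences was not tested, beyond the values without that pool given above for Lox. The 3' minus 5' signal of the control transcripts, a measure of RNA quality, differed between aldosterone and vehicle by -0.004 for Gapdh and -0.045 for beta-actin (exact permutation test within times, two-sided p = 0.916 and 0.549).

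Most of these genes fell over the culture. At 8 h against 2 h, Eln, Fbln5, Mfap5 and Fbln1 fell in both treatments. Lox, Loxl1 and Loxl3 fell in vehicle pools and missed the threshold in aldosterone pools, and Emilin1 passed in neither. In aldosterone pools 4 of the 8 genes were called, all lower, against 56.5% of all genes called and 27.3% called lower. In vehicle pools 7 of the 8 were called, all lower, against 58.5% of all genes called and 31.9% called lower. Without the first vehicle pool at 2 h, Loxl1 and Fbln1 missed the threshold in vehicle pools, and Emilin1 was called higher. The pools of the 2 times did not overlap for 5 of the 8 genes with aldosterone, where the share of all genes was 71.7%, and for 6 of the 8 with vehicle, where it was 57.2%. The median change of the 8 genes was -0.44 with aldosterone and -0.93 with vehicle, against 0.02 with aldosterone and -0.08 with vehicle over all genes. Whether the changes differed between the treatments was tested only in the F test above, which called none of the 8. That test takes 4 h and 8 h against 2 h together, so 8 h against 2 h alone was not tested between treatments.

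Elastin had the largest fall of the 8 in both treatments. With aldosterone, Eln averaged 11.48 ± 0.068 at 2 h, 10.46 ± 0.307 at 4 h and 8.30 ± 0.303 at 8 h (SD, n = 3 pools each). With vehicle it averaged 11.38 ± 0.395, 10.85 ± 0.147 and 9.32 ± 0.705 at the same times. On this first probe set all 8 h pools lay below all 4 h pools in both treatments. The change at 8 h against 2 h was -3.18 ± 0.27 with aldosterone (limma adjusted p = 2.89e-08), a 9.07-fold lower level, and -2.05 ± 0.27 with vehicle (adjusted p = 4.71e-06), a 4.15-fold lower level. At 4 h against 2 h the fall had passed the test with aldosterone (-1.02, adjusted p = 0.00681) and not with vehicle (-0.53, adjusted p = 0.13), and that difference between treatments was part of the same F test. The second Eln probe set gave -3.01 with aldosterone and -1.77 with vehicle at 8 h against 2 h, both called. On it the vehicle pools at 8 h, up to 7.04, overlapped those at 4 h, down to 6.73. Without the first vehicle pool at 2 h, the change of the first probe set in vehicle was -0.30 at 4 h (limma adjusted p = 0.417) and -1.83 at 8 h (adjusted p = 2.24e-05).

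Fbln5 fell at each step in both treatments. It averaged 11.64 ± 0.092 at 2 h, 11.04 ± 0.038 at 4 h and 10.02 ± 0.164 at 8 h with aldosterone, and 11.68 ± 0.407, 11.05 ± 0.045 and 10.17 ± 0.335 with vehicle (SD, n = 3 pools each). No 4 h pool reached the 2 h range and no 8 h pool reached the 4 h range. The change at 8 h against 2 h was -1.62 ± 0.17 with aldosterone (limma adjusted p = 4.47e-07) and -1.50 ± 0.17 with vehicle (adjusted p = 9.78e-07). Fbln5 was the 1 gene of the 8 called at 4 h against 2 h in vehicle pools (-0.62, adjusted p = 0.00865), against 40.2% of all genes called and 25.6% called lower. With aldosterone Fbln5 (-0.60) and Eln were the 2 called, against 38.6% of all genes called and 21.3% called lower. Without the first vehicle pool at 2 h, the Fbln5 change in vehicle was -0.39 at 4 h (adjusted p = 0.0348) and -1.27 at 8 h.

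The promoters of 4 of the 10 genes were in the table of RefSeq sequences used here, for Fbln5, Fbln1, Emilin1 and the unmeasured Fbn1. Those of the 3 measured genes are shown beside their course over the culture, in which Fbln5 and Fbln1 fell at 8 h against 2 h in both treatments and Emilin1 passed in neither. Each is a window of 300 bases around an annotated start, most of it upstream, in build GRCm38.p6, written 5′ to 3′ on the gene's strand. Capitals mark the letters AGAACA, the half-site bound by glucocorticoid and mineralocorticoid receptors, searched on both strands, where the reverse strand reads TGTTCT. The 2 Fbln5 windows are chr12:101819070-101819369 and chr12:101818435-101818734, both on the minus strand. The printed Fbln1 window is chr15:85205699-85205998 on the plus strand. A second Fbln1 start gives the window chr15:85205758-85206057, which overlaps most of the first and is not printed. The Emilin1 window is chr5:30913536-30913835 on the plus strand.
Fbln5, first start: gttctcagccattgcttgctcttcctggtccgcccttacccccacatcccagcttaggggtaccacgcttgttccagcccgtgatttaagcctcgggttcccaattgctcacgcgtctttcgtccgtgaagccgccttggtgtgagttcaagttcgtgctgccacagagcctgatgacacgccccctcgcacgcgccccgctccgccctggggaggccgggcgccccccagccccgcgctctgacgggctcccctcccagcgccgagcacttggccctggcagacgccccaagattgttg
Fbln5, second start: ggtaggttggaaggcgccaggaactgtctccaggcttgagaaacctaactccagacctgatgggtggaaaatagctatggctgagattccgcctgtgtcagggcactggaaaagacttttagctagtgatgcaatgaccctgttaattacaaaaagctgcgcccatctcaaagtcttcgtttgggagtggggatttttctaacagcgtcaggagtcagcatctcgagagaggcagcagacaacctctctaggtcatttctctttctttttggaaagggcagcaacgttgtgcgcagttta
Fbln1, first start: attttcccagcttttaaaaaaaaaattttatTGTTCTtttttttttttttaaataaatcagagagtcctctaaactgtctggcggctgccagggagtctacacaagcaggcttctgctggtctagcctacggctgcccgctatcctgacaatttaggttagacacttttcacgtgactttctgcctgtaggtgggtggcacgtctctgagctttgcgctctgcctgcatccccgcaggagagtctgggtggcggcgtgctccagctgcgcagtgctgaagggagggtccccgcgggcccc
Emilin1: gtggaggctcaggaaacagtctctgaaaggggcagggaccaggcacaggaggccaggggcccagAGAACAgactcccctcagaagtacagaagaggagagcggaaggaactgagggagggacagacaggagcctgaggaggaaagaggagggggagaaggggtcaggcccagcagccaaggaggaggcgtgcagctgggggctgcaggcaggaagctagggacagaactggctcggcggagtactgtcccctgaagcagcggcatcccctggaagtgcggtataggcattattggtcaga
The letters occur once in the first Fbln1 window, at position -219 from its start, and once in the Emilin1 window, at position -186 from its start. They occur in neither Fbln5 window, nor in the second Fbln1 window, which begins downstream of that match, nor in the Fbn1 window. Over all 32841 promoter windows of the same length, 6232 (19.0%) hold them at least once. The letters TGANTCA, an AP-1 motif, were searched on both strands too. They occur in 7.81% of all windows and in none of those of Fbln5, Fbln1, Emilin1 and Fbn1. These matches describe the letters only. None of the 3 measured genes passed the test of aldosterone against vehicle at any time.

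Mfap5 kept its level until 4 h. It averaged 10.41 ± 0.193 at 2 h, 10.29 ± 0.043 at 4 h and 9.39 ± 0.056 at 8 h with aldosterone, and 10.26 ± 0.140, 10.25 ± 0.123 and 9.40 ± 0.196 with vehicle (SD, n = 3 pools each). The 2 h and 4 h pools overlapped, and the 8 h pools lay below both. The change at 8 h against 2 h was -1.02 ± 0.12 with aldosterone (limma adjusted p = 1.6e-06) and -0.86 ± 0.12 with vehicle (adjusted p = 1.1e-05). Without the first vehicle pool at 2 h, the Mfap5 change in vehicle was -0.81 (limma adjusted p = 2.66e-05). A second Mfap5 probe set gave larger changes, -2.15 ± 0.19 with aldosterone and -1.97 ± 0.19 with vehicle, so the direction of the Mfap5 change was shared and its size depended on the probe set.

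Lox, as given above, differed between the treatments at 8 h. With aldosterone it averaged 11.05 ± 0.140 at 2 h, 11.47 ± 0.095 at 4 h and 10.86 ± 0.051 at 8 h, and with vehicle 11.004 ± 0.428, 11.11 ± 0.138 and 9.91 ± 0.338 (SD, n = 3 pools each). The vehicle pools at 8 h lay below all vehicle pools of both earlier times, while the aldosterone pools at 8 h overlapped those at 2 h. At 8 h against 2 h the change was -0.19 ± 0.18 with aldosterone (95% interval -0.571 to 0.186, limma adjusted p = 0.385) and -1.10 ± 0.18 with vehicle (adjusted p = 5.24e-05). At 8 h against 4 h Lox fell by 0.62 with aldosterone (adjusted p = 0.0122) and by 1.21 with vehicle (adjusted p = 5.82e-05). With aldosterone the second Lox probe set gave -0.39 at 8 h against 4 h and missed the threshold (adjusted p = 0.102).

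Loxl3 averaged 6.92 ± 0.043 at 2 h, 6.63 ± 0.045 at 4 h and 6.64 ± 0.222 at 8 h with aldosterone, and 6.88 ± 0.491, 6.47 ± 0.369 and 5.88 ± 0.283 with vehicle (SD, n = 3 pools each). All vehicle pools at 8 h were below all those at 2 h, and with aldosterone the 8 h and 2 h pools overlapped. The change at 8 h against 2 h was -0.28 with aldosterone (limma adjusted p = 0.319) and -1.0035 ± 0.23 with vehicle (adjusted p = 0.00109). Loxl1 changed by -0.05 with aldosterone and by -0.47 ± 0.15 with vehicle (adjusted p = 0.0125). Without the first vehicle pool at 2 h, the changes in vehicle were -0.85 for Lox (adjusted p = 7.62e-05), -0.72 for Loxl3 (adjusted p = 0.00468) and -0.26 for Loxl1, which then missed the threshold (adjusted p = 0.0597). Loxl1 also missed it without the third vehicle pool at 8 h, with array weights or with only those groups fitted.

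Fbln1 fell by 0.61 with aldosterone (limma adjusted p = 0.0483) and by 0.64 with vehicle (adjusted p = 0.0359) at 8 h against 2 h, and by 1.01 in each treatment on its dimmer second probe set. The Fbln1 call in vehicle was lost in 6 of 28 alternatives. These were the fits without the first vehicle pool at 2 h (-0.36, limma adjusted p = 0.193) or the third at 8 h, and those without the filter, with median centring, with array weights or with only those groups. With aldosterone the Fbln1 change stayed between -0.81 and -0.53 over the alternatives, with adjusted p between 0.00367 and 0.136, and it was lost in 10 of 28, among them the fit without any 1 of the 2 h aldosterone pools. Emilin1 was the one gene of the 8 with a higher mean at 8 h than at 2 h in both treatments, by 0.55 with aldosterone and 0.34 with vehicle, neither called. Without the first vehicle pool at 2 h the Emilin1 change in vehicle was 0.84 (limma adjusted p = 0.0267). Against 4 h, Emilin1 was higher at 8 h by 0.87 with aldosterone (adjusted p = 0.0704) and by 1.002 with vehicle (adjusted p = 0.0393), but its second probe set gave 0.27 with aldosterone and 0.23 with vehicle, both uncalled. Between 4 h and 8 h, 5 of the 8 genes were called with aldosterone, all lower, against 37.5% of all genes called and 16.6% called lower. With vehicle 5 were called lower and 1 higher, against 37.7% of all genes called, 17% lower and 20.7% higher. Of these, Loxl3 in vehicle (-0.60, limma adjusted p = 0.0479) lost its call in 18 of 28 alternatives, Emilin1 in vehicle in 5 and Loxl1 with aldosterone (-0.42, adjusted p = 0.0328) in 5.

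**Figure D4:**
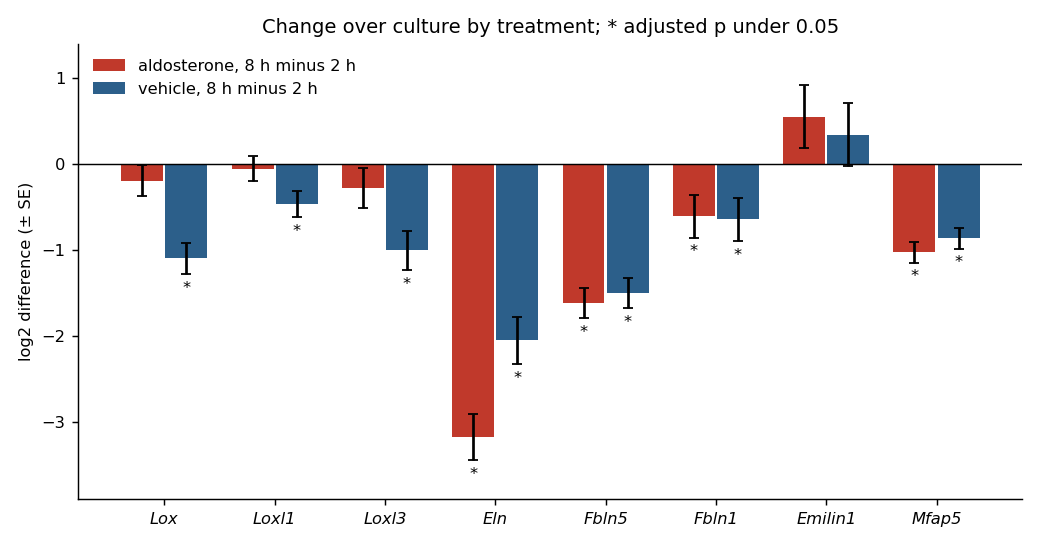
Log2 difference at 8 h minus 2 h (± SE) of the 8 genes with aldosterone (red) and with vehicle (blue); asterisks mark an adjusted p under the threshold. Eln has the longest bars in both treatments, -3.18 with aldosterone and -2.05 with vehicle, and the bars of Lox, Loxl1 and Loxl3 are shorter with aldosterone than with vehicle.

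Scaling bears on these changes. Centring each array on its median moved the median of all genes at 8 h against 2 h in vehicle to 0.09, and then 2425 of 4322 called genes were higher, against 1888 of 4150 as reported. At 4 h against 2 h in vehicle it gave 1462 higher of 2965 called, against 1038 of 2852. At 2 h of aldosterone against vehicle it gave 10 higher of 12 called, against 3 of 5. With that centring 6 of the 8 genes were called lower at 8 h against 2 h in vehicle and 4 with aldosterone. Marker levels moved over the culture too: all 7 measured fibroblast markers were called lower at 8 h against 2 h in both treatments, with median changes of -1.60 with aldosterone and -1.85 with vehicle. Of the 10 macrophage markers, 8 were called lower and 1 higher in each treatment, with medians of -1.95 with aldosterone and -2.09 with vehicle. Of the 7 measured adipocyte markers, of 11 listed, 5 were called lower and 1 higher in each treatment, with medians of -1.22 with aldosterone and -1.75 with vehicle. Of the 9 measured endothelial markers, of 11 listed, 4 were called lower and 1 higher with aldosterone, and 4 lower with vehicle. Of the 11 smooth muscle markers, 9 were called lower with aldosterone (median -0.95), and 8 lower and 1 higher with vehicle (median -0.69). These marker counts stand beside 56.5% of all genes called with aldosterone, 27.3% lower and 29.2% higher. With vehicle 58.5% of all genes were called, 31.9% lower and 26.6% higher. RNA quality moved with time as well. The 3' minus 5' signal of Gapdh was 0.448 to 0.491 at 8 h and 0.574 to 0.673 at 2 h with aldosterone, and 0.355 to 0.528 at 8 h and 0.559 to 0.645 at 2 h with vehicle, without overlap. That of beta-actin was 1.72 to 1.82 at 8 h and 1.77 to 1.88 at 2 h with aldosterone, and 1.51 to 2.02 at 8 h and 1.63 to 2.11 at 2 h with vehicle, with overlap. The part of these shifts in the changes of the elastic fibre genes was not tested.

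Genes around the elastic fibre were examined in 4 lists, described by counts. For the change at 8 h against 2 h, these counts stand beside 27.3% of all genes called lower and 29.2% called higher with aldosterone, and 31.9% called lower and 26.6% called higher with vehicle. Of 21 partners in fibre assembly and microfibrils, 14 were measured, and 0 were called in limma for aldosterone against vehicle at 2, 4 or 8 h or on average. Over all genes 0.0705% were called at 2 h, 0.240% at 4 h, 1.0% at 8 h and 1.10% on average, so few calls were to be had. At 8 h against 2 h, 8 of the 14 fell and 1 rose with aldosterone (56.5% of all genes called) and 8 fell and 2 rose with vehicle (58.5% of all genes called), with medians of -0.61 with aldosterone and -0.67 with vehicle. Fbln7, a further fibulin, fell by 1.90 ± 0.24 with aldosterone (adjusted p = 3.01e-06) and by 1.65 ± 0.24 with vehicle (adjusted p = 1.41e-05). Ltbp3, a latent TGF-beta binding protein of microfibrils, fell by 0.89 with aldosterone and by 0.92 with vehicle.

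Of 20 partners, processing enzymes and collagen substrates of lysyl oxidases, 17 were measured. For aldosterone against vehicle 0 of them were called at any time or on average, against 0.0705% to 1.10% of all genes. Between these times in culture, at 8 h against 2 h, 10 of the 17 fell and 5 rose with aldosterone, against 56.5% of all genes called, and 8 fell and 4 rose with vehicle, against 58.5%, with medians of -1.004 with aldosterone and -0.61 with vehicle. Collagen I, a main substrate of Lox, fell: Col1a1 changed by -1.51 ± 0.13 with aldosterone and by -1.48 ± 0.13 with vehicle. Pcolce, which enhances the cleavage of procollagen, fell by 1.61 with aldosterone and by 1.92 with vehicle. P4ha1, a prolyl hydroxylase subunit that acts on procollagen inside the cell, rose by 2.22 ± 0.21 in both treatments.

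Of 15 elastin-degrading enzymes and inhibitors, 11 were measured. For aldosterone against vehicle at 8 h, 1 was called, against 1.0% of all genes called and 0.141% called lower. The gene called was Timp3, a matrix-bound inhibitor of metalloproteinases, which fell by 0.62 ± 0.11 (limma adjusted p = 0.00687). Timp3 was also the 1 called on average over the times (-0.30 ± 0.06, adjusted p = 0.023), against 1.10% of all genes. At 8 h against 2 h, 7 of the 11 fell and 3 rose in each treatment, against 56.5% of all genes called with aldosterone and 58.5% with vehicle, with medians of -1.03 with aldosterone and -0.76 with vehicle. Timp1, another inhibitor, rose by 3.42 ± 0.28 with aldosterone and by 4.40 ± 0.28 with vehicle, and Timp2 fell by 1.85 with aldosterone and by 1.94 with vehicle.

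Of 12 known regulators of elastin and lysyl oxidase, chiefly of the TGF-beta pathway, 11 were measured. Ccn2, a matricellular protein induced by TGF-beta, was the 1 called at 4 h (0.50 ± 0.09, limma adjusted p = 0.0175) and at 8 h of aldosterone against vehicle (0.86 ± 0.09, adjusted p = 1.69e-05), and its effect differed between times (F test, adjusted p = 0.00681). Of all genes, 0.240% were called at 4 h, 1.0% at 8 h and 0.155% in the F test. On average over the times Ccn2 was called higher (0.45 ± 0.05, limma adjusted p = 4.36e-05). Tgif1, a transcriptional repressor in TGF-beta signalling, fell by 0.59 on that average (adjusted p = 0.023), where 1.10% of all genes were called. The TGF-beta genes themselves and their receptors were not called for aldosterone at 8 h. At 8 h against 2 h, 7 of the 11 fell and 3 rose in each treatment, against 56.5% of all genes called with aldosterone and 58.5% with vehicle. The medians were -0.83 with aldosterone and -1.09 with vehicle. Tgfb3 fell by 2.88 with aldosterone and by 2.62 with vehicle, and Hif1a, the oxygen-regulated transcription factor subunit, rose by 1.45 with aldosterone and by 0.98 with vehicle.

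The patterns of single genes over the 18 samples were also set against those of all genes tested, by Pearson's r of the log2 values. These values share their pools and the common course over the culture, so they are a description. The genes most like Lox were Cebpd (r = 0.962), Spsb1 (0.922) and B4galt1 (0.906). Those most like Eln were Srf (0.975), Timp3 (0.972) and Calhm5 (0.966), and those most like Fbln5 were Fkbp7 (0.987), Cst3 (0.986) and Vkorc1 (0.985). Within the 8, Eln ran closest to Fbln5 (0.953) and Lox to Loxl1 (0.856), while Lox and Eln had an r of 0.485. Emilin1 and Mfap5 had an r of -0.444.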

How the data were processed

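The deposited values are log2 expression levels of Affymetrix arrays. Per the submitters' processing notes they come from GCRMA, whose version and settings no source used here gives. Raw array files were not used here. The 18 samples form 6 groups of 3 pools by treatment and time, taken from the labels. Probe sets with 1 gene symbol in the platform annotation were kept where log2 was above 4 in at least 3 of 18 samples, which left 11236 of 20380, and the brightest stood for its gene. The 7092 genes were fitted with 1 mean per group in limma 3.58.1 (R 4.3.3, 12 residual degrees of freedom, intensity trend), and p-values were adjusted by Benjamini-Hochberg with a threshold of 0.05. The median SD within groups was 0.235, and the number of arrays limits precision. All 10 genes are described whether or not they passed. From each of the 4 lists, up to 4 genes with the smallest p could be named. For likeness, the 3 genes with the highest r were ranked. The genes and lists were chosen with earlier results of these data known. The fit was tested on simulated data. Alternatives covered the filter, scaling, array weights, the trend, the groups fitted, the replicate block and leaving out each pool.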

Additional observations from a re-analysis of the deposited data

Results flagged for a closer look

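The probe set that the annotation gives to both Loxl2, a further lysyl oxidase, and Gm21451 lies outside the comparisons above and showed a signal there. At 8 h it read 4.96, 5.29 and 4.97 in aldosterone pools, against 4.33, 4.52 and 3.79 in vehicle pools, so the groups did not overlap. In a fit of 11676 probe sets that includes those of several genes, added after seeing the data, the difference was 0.8574 ± 0.25 (limma adjusted p = 0.197), which did not pass. It was 0.43 at 2 h and 0.22 at 4 h, where the groups overlapped. At 8 h against 2 h its mean was higher by 1.26 with aldosterone and by 0.84 with vehicle, where the 8 h and 2 h pools overlapped. All 2 h pools read below the filter of 4, at 3.14 to 3.89, so the probe set passed it through later pools, mainly those at 8 h. A test of this rise would draw on that filter, so the rise is only described. The levels are close to the filter of 4, and the signal cannot be assigned to either gene.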

How the results depend on the processing

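Results were recomputed under 28 alternatives, or 27 for the average over times and for the difference between times, where a fit of 2 groups alone gives no value. Of 2448 values for the 8 genes, 2337 kept their side of the threshold and their direction where called, 69 lost their call, 42 gained one and 0 reversed while called; 55 of 1651 values uncalled both ways changed sign. At 8 h, aldosterone against vehicle called 3 of the 8 genes with array weights and 0 to 3 when a pool was left out. The Lox difference stayed between 0.75 and 1.05, with adjusted p between 7.69e-05 and 0.0631. The Eln difference stayed between -1.37 and -0.67, and that of Loxl3 between 0.60 and 0.88; with array weights both were called. On average over times the count was 0 without the intensity trend, 0 without the filter, 2 with array weights and 0 to 1 when a pool was left out. At 4 h against 2 h, vehicle gave 2 with array weights, 0 with only those groups fitted and 1 to 2 when a pool was left out. Aldosterone gave 4 after quantile normalization, median centring, array weights or a fit of those groups alone. It gave 2 to 4 when a pool was left out. The genes gained with aldosterone were Lox (0.42, limma adjusted p = 0.073 as reported) and Loxl1 (0.37, adjusted p = 0.0573), both higher at 4 h. Eln and Fbln5 were lower. Over all genes, 3002 were called after quantile normalization and 2950 after median centring, against 2736. Without vehicle 8 h replicate 3 the count at 8 h stayed 1, but the gene was Eln and not Lox. Over all genes, calls at 8 h numbered 222 with array weights, 33 without aldosterone 8 h replicate 2 and 111 without the first vehicle pool at 2 h, against 71. With the replicate number as a block, Lox at 8 h remained at 0.95 (limma adjusted p = 0.00744). Same-numbered pools showed no clear joint deviation (r = -0.186 to 0.282 over 9 pairs, 2 above 0.1). With 3 pools per group, this cannot exclude a pairing. Other counts for the 8 genes stayed within 1.5 times.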
